A study of Mus musculus with 384 samples.

Results

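The cadherins and the non-clustered protocadherins are 2 families of calcium-dependent adhesion proteins at the cell surface. The members were chosen by symbol: every gene of the deposited tables named Cdh and a number, or Pcdh and a number with an optional final x, which leaves out the clustered alpha, beta and gamma protocadherins. This gave 35 of 32813 genes, 23 of them Cdh and 12 Pcdh. The comparison was between groups of single YFP-positive retinal cells taken at postnatal day 17 from 2 mice that carried Cre in the Kcng4 locus, a gene for a potassium channel subunit, and Thy1-stop-YFP Line#1, a yellow fluorescent protein that is made once Cre has removed a stop and where the Thy1 promoter is active. The sort therefore takes cells by present or past Cre activity and by the reach of that promoter. Each mouse gave retinas named la and Ra (1la, 1Ra, 2la and 2Ra), a suffix the labels do not explain, with 96 wells per retina, and every group below shares this genotype, age and sort. There was no treated or wild-type group.

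Cadherins hold cells together through their extracellular domains. Classical cadherins (types I and II) bind catenins inside the cell, which link them to actin, and type II members are expressed in combinations that differ between kinds of neuron. In the retina, members of these families are known for guiding the branches of interneurons and ganglion cells to the layers where they form synapses. The delta protocadherins are a related family with other intracellular partners, among them the WAVE complex that drives actin branching. Pcdh15 and Cdh23 together form fine filaments within the bundles of hair cells in the ear, and Pcdh15 is also present in photoreceptors.

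Cells were grouped by 3 genes that are not members. A cell was kept with at least 3000 genes at an expected count of 1, and called Sox6-only, Vsx1-only or Ddit4l-only when it held exactly 1 of Sox6, Vsx1 and Ddit4l at 20 TPM or more. TPM, a share of all transcripts scaled to a fixed total, is corrected for transcript length, so levels can be set against each other between genes on that scale. Of 383 cells with values, 321 were kept, and 151 were Sox6-only, 60 Vsx1-only and 59 Ddit4l-only, with at least 10 cells of each group in every retina. The other kept cells held none of the markers (33 cells) or more than 1 (18 cells). Few grouped cells sat near the threshold. The own marker was between 20 and 40 TPM in 7 Sox6-only, 2 Vsx1-only and 1 Ddit4l-only cells. Another marker was between 10 and 20 TPM in 2 Sox6-only cells and in no cell of the other groups. Of the 33 cells with none of the markers, 9 had a marker between 10 and 20 TPM. Total counts per cell ran from 203700 to 1946000, with group medians of 1067000, 1073000 and 1091000. Kcng4 itself had a mean of 265 TPM in Sox6-only, 83.7 TPM in Vsx1-only and 281 TPM in Ddit4l-only cells. Of 12 markers of bipolar cells, the interneurons between photoreceptors and ganglion cells, 10, 9 and 8 had a median of at least 1 TPM in the 3 groups. Of 9 ganglion cell markers, 1, 0 and 0 did. Rod transcripts were present in each group, with a sum over 8 rod genes of at least 1000 TPM in 43, 18 and 11 cells, called rod-rich below.

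Before the values, the sequence just upstream of 4 members is shown, because these members separate the groups in different ways below: Pcdh9 and Pcdh17 had their highest levels in Vsx1-only cells, Cdh20 was near 0 in Ddit4l-only cells and Pcdh7 was near 0 in Vsx1-only cells. Each run is the sense strand 5′ to 3′, from the RefSeq promoter windows of GRCm38.p6 (250 bases before to 50 after the start), trimmed to the bases before both the RefSeq and the GENCODE start of the gene. The positions are chr14:93890680-93890929 (minus strand) for Pcdh9, chr14:84443313-84443562 (plus) for Pcdh17, chr1:104768270-104768519 (plus) for Cdh20 and chr5:57717831-57717966 (plus) for Pcdh7, each just outside the annotated body of its gene. Capitals mark matches on either strand to TTGGC, a core bound by nuclear factor I proteins.
Pcdh9: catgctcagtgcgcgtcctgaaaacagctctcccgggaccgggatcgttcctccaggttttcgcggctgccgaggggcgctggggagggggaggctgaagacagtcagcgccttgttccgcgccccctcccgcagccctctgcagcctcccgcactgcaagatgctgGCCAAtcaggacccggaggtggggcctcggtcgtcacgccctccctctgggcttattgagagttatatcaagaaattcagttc
Pcdh17: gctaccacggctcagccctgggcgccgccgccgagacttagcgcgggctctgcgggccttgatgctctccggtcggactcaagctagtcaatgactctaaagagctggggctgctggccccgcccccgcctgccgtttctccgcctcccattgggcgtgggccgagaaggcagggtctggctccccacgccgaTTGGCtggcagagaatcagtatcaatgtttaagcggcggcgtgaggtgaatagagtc
Cdh20: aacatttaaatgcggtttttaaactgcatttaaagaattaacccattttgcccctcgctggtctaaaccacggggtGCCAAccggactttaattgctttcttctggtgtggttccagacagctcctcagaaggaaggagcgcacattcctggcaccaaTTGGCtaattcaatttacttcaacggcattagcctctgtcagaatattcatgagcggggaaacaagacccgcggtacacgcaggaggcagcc
Pcdh7: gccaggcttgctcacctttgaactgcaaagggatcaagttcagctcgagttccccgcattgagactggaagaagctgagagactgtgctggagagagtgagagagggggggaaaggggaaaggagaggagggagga
A window was used for 22 of the 35 members. TTGGC, on either strand, was in 15 of those 22 windows and in 46.7% of all 32851 windows. The E-box CAGCTG was in 3 of 22 (16.3% of all windows), the E-box CAGATG in 1 (17.2%), TAATCC, a core bound by OTX and CRX proteins, in 2 (7.06%), and AACAAT, a core bound by SOX proteins, in 0 (10.7%). None of these motifs contains another, and CAGCTG reads the same on both strands. A match says only that the letters are there.

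The members covered a wide range of levels. Taking for each member the highest of the 3 group means (each the mean of 4 retina means), 10 members reached 20 TPM: Cdh2, Cdh8, Cdh9, Cdh10, Cdh11, Cdh20, Pcdh7, Pcdh9, Pcdh15 and Pcdh17. A further 5 lay between 5 and 20 TPM (Cdh4, Cdh12, Cdh17, Cdh18 and Pcdh1), and 9 between 1 and 5 TPM (Cdh6, Cdh7, Cdh13, Cdh22, Cdh23, Pcdh8, Pcdh10, Pcdh18 and Pcdh19). Another 7 lay above 0 and under 1 TPM (Cdh1, Cdh3, Cdh19, Cdh24, Cdh26, Pcdh11x and Pcdh20), and Cdh5, Cdh15, Cdh16 and Pcdh12 were at 0 in all 3 groups. Cdh1, the E-cadherin of epithelia, and Cdh5, the cadherin of blood vessel lining, were thus near or at 0 in these cells. By class, the 13 type II members summed to 254 TPM in Sox6-only, 198 TPM in Vsx1-only and 303 TPM in Ddit4l-only cells, with Cdh9 the highest in each. The 4 delta-1 protocadherins summed to 78.1, 361 and 124 TPM, with Pcdh9 the highest in each.

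**Figure D1:**
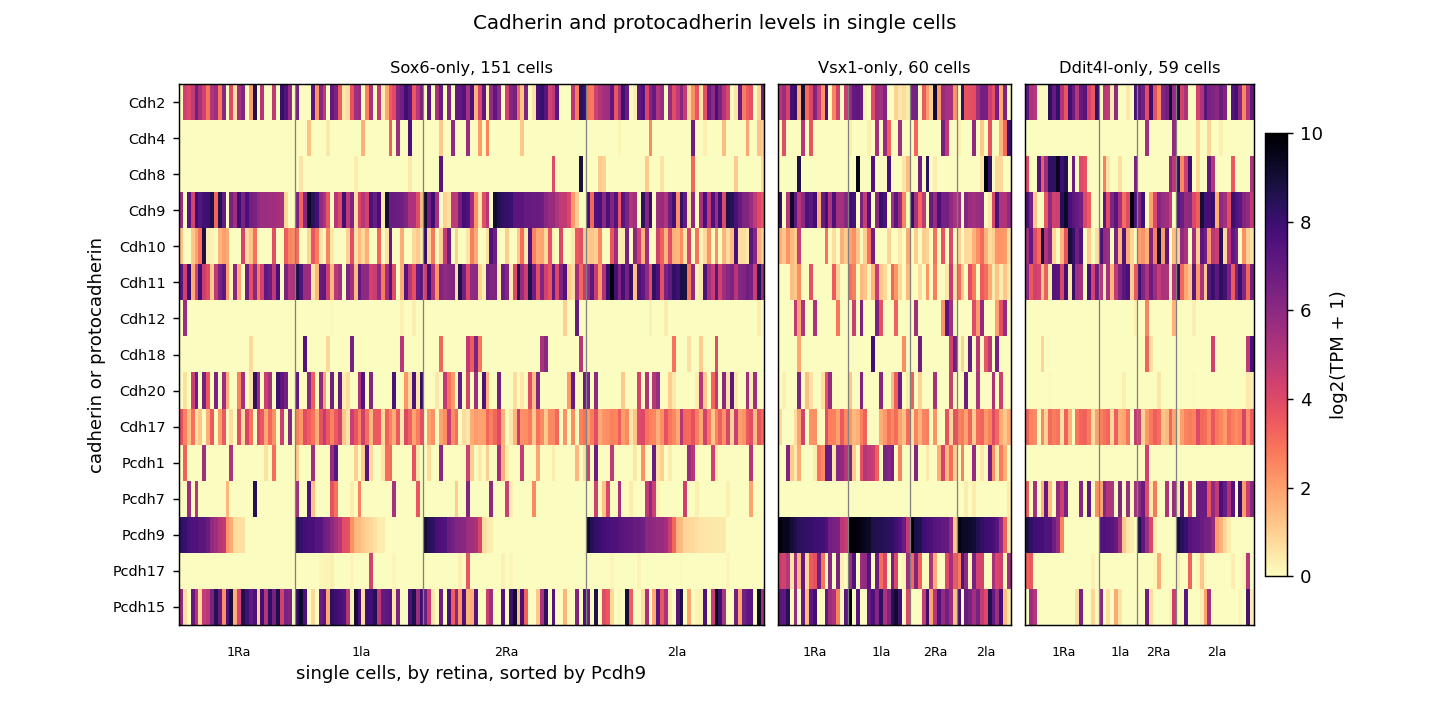
Level of the 15 members that reached a group mean of 5 TPM in each of the 270 grouped cells, as log2(TPM + 1) from 0 (pale) to 10 (dark), 1 column per cell, cells ordered by retina and then by Pcdh9. Pcdh9 fills nearly every Vsx1-only cell (57 of 60 at 20 TPM or more), while Cdh11 is pale there and dark in the other groups, and Pcdh7 and Cdh20 each leave 1 group empty.

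Counts were summed over the cells of each mouse and group and tested across all genes with edgeR's quasi-likelihood test, the mouse as a block. A gene was called when its p, adjusted by Benjamini-Hochberg over all genes, was under 0.05 and its log2 fold change was 1 or more in size. Between Sox6-only and Vsx1-only cells it called 0 of 25 members tested and 0.0% of 16646 genes, with 7 members and 1429 genes at an unadjusted p under 0.05. Between Sox6-only and Ddit4l-only cells it called 0 members and 0.0% of genes, with 7 members and 1342 genes at an unadjusted p under 0.05. Between Ddit4l-only and Vsx1-only cells it called 1 member, Cdh11, and 0.0421% of genes, with 10 members and 2141 genes at an unadjusted p under 0.05. The group markers differ by the choice of cells and are no findings, but mouse sums missed most of them. In Sox6-only against Vsx1-only cells Sox6 (log2 fold change 10.7, edgeR adjusted p = 0.124) and Vsx1 (-9.75, 0.098) were not called. In Sox6-only against Ddit4l-only cells Sox6 (9.89, 0.248) and Ddit4l (-10.1, 0.199) were not called. In Ddit4l-only against Vsx1-only cells Ddit4l was called (10.4, 0.041) and Vsx1 was not (-11.3, 0.067). DESeq2 on the same mouse sums, without edgeR's filter on low counts, called 8, 9 and 11 of 31 members in the 3 comparisons. It called 977, 890 and 1766 genes, out of a number not given here. The same edgeR test on retina sums, in which each retina was a block, called 4 of 21 members tested (0.806% of 14508 genes), 2 (0.551%) and 6 (2.3%). Retinas from 1 mouse are not independent of each other, so these p-values are smaller than 2 mice would warrant. They measure how the differences between groups vary from retina to retina. Retina-sum values are given below as such, and a call from mouse sums is named as one. A sum over cells cannot tell fewer expressing cells from less RNA per cell, so shares of cells are given beside the levels. The median log2 fold change of the 21 members in retina sums was -0.13, 0.17 and -1.05 in the 3 comparisons, against 0.08, 0.14 and -0.04 over all genes tested. The members that passed the filter on low counts did so in part through the group where they are high, so these medians and counts describe those members and not all 35.

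**Figure D2:**
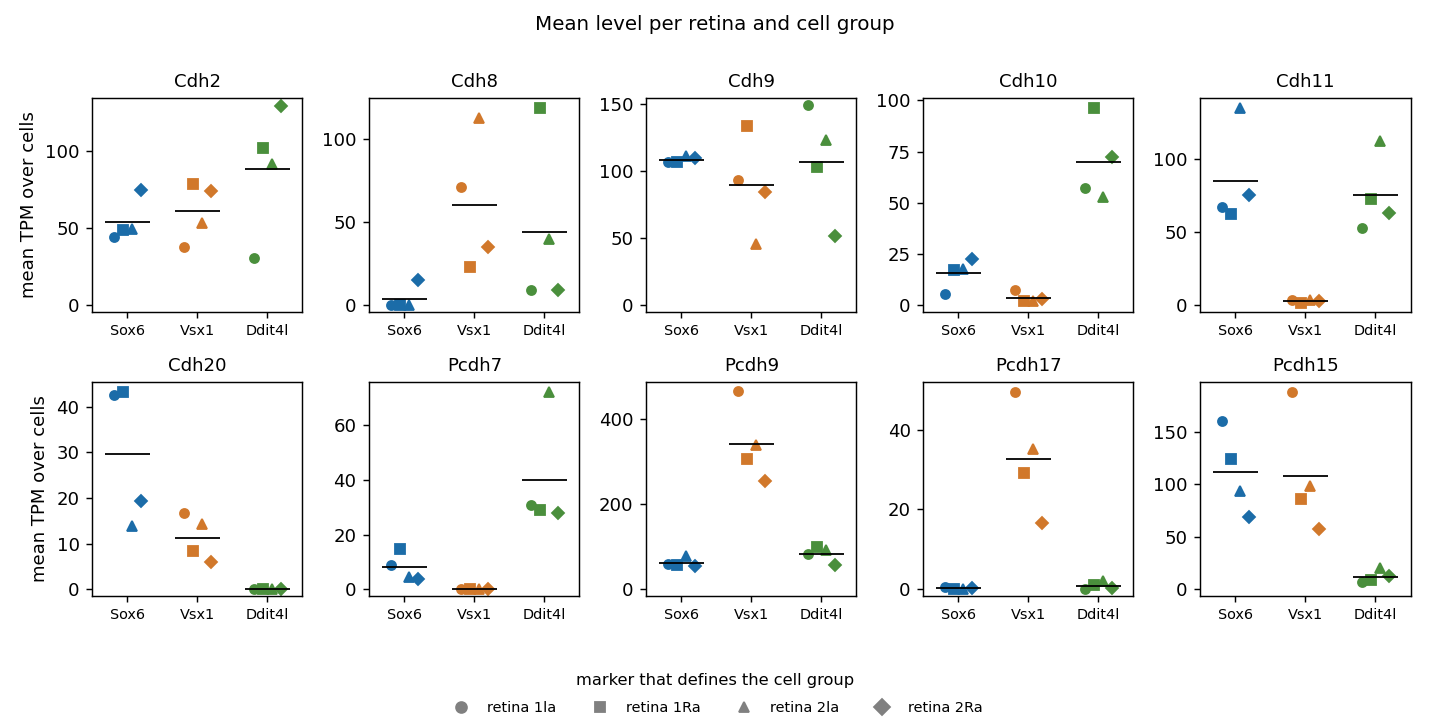
Mean TPM over the cells of a group in each retina (points, 1 symbol per retina) and the mean of the 4 retinas (line) for the 10 members that reached 20 TPM, each panel on its own linear axis. The 4 Vsx1-only points of Pcdh9 (255 to 467 TPM) lie above all points of the other groups, and those of Cdh11 (1.70 to 3.68 TPM) lie below all of them.

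The delta-1 protocadherin Pcdh9 had the highest group mean of all members, in Vsx1-only cells. Its retina means there were 467, 306, 341 and 255 TPM, for 1la, 1Ra, 2la and 2Ra. Sox6-only cells had 58.5, 57, 78.2 and 55.5 TPM, and Ddit4l-only cells 82.2, 99.3, 93.3 and 57.6 TPM, in the same order of retinas. The lowest Vsx1-only retina was thus above the highest retina of either other group, and those other groups overlapped. The share of all genes whose retinas separate in this way is not given here. Retinas that do not overlap are therefore a description only, for this member and those below. In retina sums Pcdh9 was lower in Sox6-only than in Vsx1-only cells, with a log2 fold change of -2.42 (SE 0.17, edgeR adjusted p = 0.00085), and lower in Ddit4l-only than in Vsx1-only cells, at -2.09 (SE 0.17, adjusted p = 0.00065). Both calls were made again without each retina in turn. Mouse sums gave nearly the same sizes, -2.44 and -2.07, with adjusted p-values of 0.124 and 0.101. The share of cells with Pcdh9 at 1 TPM or more differed as well as the mean level. It was 59 of 60 in Vsx1-only cells, against 47.7% of Sox6-only and 55.9% of Ddit4l-only cells. In Sox6-only cells the median was 0.75 TPM while 60 of 151 cells reached 20 TPM, so measured levels were uneven within that group. An expected count of 1 or more was present in 62.25% of Sox6-only, 100% of Vsx1-only and 64.41% of Ddit4l-only cells. The part of missed transcripts in these shares was not tested.

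Pcdh7, another delta-1 member, was the reverse case, highest in Ddit4l-only cells. Its retina means there were 30.9, 29.1, 72.1 and 28.1 TPM (1la, 1Ra, 2la, 2Ra). Sox6-only cells had 8.91, 14.7, 4.56 and 3.89 TPM, and in Vsx1-only cells all 60 together held 3 counts. Between the groups there was no overlap of retinas. Scaled to the group's total count, the Ddit4l-only sum was 3093 times the Vsx1-only sum, with a 95% interval of 1058 to 15000 that covers counting error only, and the Sox6-only sum 487 times (166 to 2363). All 3 Vsx1-only counts came from retina 2la. Without it the group held 0 counts, and against a floor of 3 counts over the group the Ddit4l-only sum was at least 1463-fold and the Sox6-only sum at least 417-fold higher. Without 1la, 1Ra or 2Ra the first ratio ran from 2325 to 2700 and the second from 304 (95% interval 104 to 1475, without 1la) to 429. In retina sums the edgeR adjusted p was 0.0013 for Ddit4l-only against Vsx1-only cells and 0.0057 for Sox6-only against Vsx1-only cells. The first call was made without each retina in turn, the second was made without 2Ra and lost without 1la, 1Ra or 2la, with adjusted p-values from 0.046 to 0.078 over these fits. Mouse sums gave 0.119 and 0.243. No Vsx1-only cell had Pcdh7 at 1 TPM or more, against 67.8% of Ddit4l-only and 17.2% of Sox6-only cells. A count of 0 of 60 allows a share of up to 5.0%, a limit on cells at that level among cells like these, which covers counting error only and not the difference between mice or missed transcripts. Below that level, 5.0% of Vsx1-only cells had a count. The difference between Sox6-only and Ddit4l-only cells did not pass in either fit, at a log2 fold change of -2.15 (SE 0.70, adjusted p = 0.331) in retina sums.

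The other delta-1 members were lower. Pcdh1 reached a mean of 18.7 TPM in Vsx1-only cells, from 8.74 to 27.4 TPM over retinas, with 53.3% of cells at 1 TPM or more, against 21.2% of Sox6-only and 1.69% of Ddit4l-only cells. None of its 3 comparisons passed in mouse or retina sums. Pcdh11x stayed under 1 TPM in each of the 3 groups.

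Among the delta-2 protocadherins Pcdh17 was the only member to reach 20 TPM, in Vsx1-only cells. Its retina means there were 49.5, 29.1, 35.1 and 16.6 TPM in 1la, 1Ra, 2la and 2Ra. In Sox6-only cells the highest retina was 0.56 TPM, and in Ddit4l-only cells 2.06 TPM. The Vsx1-only retinas did not overlap those of the other groups, and 68.3% of Vsx1-only cells had it at 1 TPM or more, against 1.32% and 10.2%. The log2 fold change in retina sums was -7.21 for Sox6-only against Vsx1-only cells (SE 1.99, edgeR adjusted p = 0.188) and -5.18 for Ddit4l-only against Vsx1-only cells (SE 1.81, adjusted p = 0.221), so neither passed, and neither did mouse sums (0.158 and 0.149). Pcdh8, Pcdh10, Pcdh18 and Pcdh19 had group means of 3.84 TPM or less.

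The type II cadherin Cdh11 had a low level in Vsx1-only cells and a high one in both other groups. Sox6-only cells had 67.7, 62.5, 135 and 75.6 TPM in 1la, 1Ra, 2la and 2Ra, and Ddit4l-only cells 53.2, 72.8, 113 and 63.4 TPM. Vsx1-only cells had 3.63, 1.70, 3.68 and 2.84 TPM. The first 2 groups overlapped throughout, and every retina of both was more than 10-fold above every Vsx1-only retina. Cdh11 was the only member called in mouse sums, higher in Ddit4l-only than in Vsx1-only cells with a log2 fold change of 4.61 (SE 0.23, edgeR adjusted p = 0.045), in both mice. That p lies close to the threshold. It was 0.059 without the rod-rich cells, 0.078 to 0.198 without a retina, and 0.161 and 0.210 without a mouse. The fits without a mouse used retina sums of the other mouse. Over 17 alternatives the adjusted p ran from 4.55e-49 (DESeq2) to 0.210, with log2 fold changes of 4.21 to 5.01 and 7 calls. For Sox6-only against Vsx1-only cells mouse sums gave 4.74 (SE 0.23, adjusted p = 0.062). Retina sums gave adjusted p-values of 0.00073 for that comparison and 0.00024 for Ddit4l-only against Vsx1-only cells, and made both calls without each retina in turn. Sox6-only and Ddit4l-only cells differed by 0.17 in log2 in retina sums (adjusted p = 0.938). It was at 1 TPM or more in 90.7% of Sox6-only, 91.5% of Ddit4l-only and 27 of 60 Vsx1-only cells, but at 20 TPM or more in 104 of 151, 37 of 59 and 2 of 60 cells.

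Cdh10 was highest in Ddit4l-only cells. Its retina means there were 57.3, 96.3, 52.7 and 72.5 TPM in 1la, 1Ra, 2la and 2Ra. Sox6-only cells had 5.44, 17.3, 17.7 and 22.7 TPM and Vsx1-only cells 7.34, 2.43, 2.20 and 3.09 TPM, so the Ddit4l-only retinas stood apart and the other groups overlapped through retina 1la. The log2 fold change of Ddit4l-only against Vsx1-only cells in retina sums was 4.85 (SE 0.42, edgeR adjusted p = 0.00088), a call made without each retina in turn, with an adjusted p of 0.105 in mouse sums. Sox6-only against Vsx1-only cells gave 2.73 (adjusted p = 0.015), but the call was lost without 3 of the 4 retinas (1Ra, 2la or 2Ra) and without the rod-rich cells (adjusted p = 0.284). Sox6-only against Ddit4l-only cells gave -2.13 (adjusted p = 0.052). Cells with Cdh10 at 20 TPM or more were 28 of 59 Ddit4l-only, 15 of 151 Sox6-only and 2 of 60 Vsx1-only cells.

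Cdh20, also type II, was near 0 in Ddit4l-only cells. Sox6-only cells had 42.4, 43.2, 13.8 and 19.4 TPM in 1la, 1Ra, 2la and 2Ra, and Vsx1-only cells 16.7, 8.40, 14.3 and 5.89 TPM. All 59 Ddit4l-only cells together held 4 counts, none at 1 TPM or more, which allows a share of up to 5.08% of cells at that level under the same limits. Scaled to the group's total count, the Sox6-only sum was 1119 times the Ddit4l-only sum (95% interval 437 to 4107, counting error only) and the Vsx1-only sum 529 times (206 to 1945). Without 2la, which held 2 of the 4 counts, the first ratio was 1729 (478 to 14277). Retina sums called both differences, with edgeR adjusted p-values of 0.0020 and 0.0012, again without each retina in turn, while mouse sums gave 0.248 and 0.0995. The retinas of Sox6-only and Vsx1-only cells overlapped (log2 fold change 1.24, SE 0.57, adjusted p = 0.563). Even in those groups it was not detected in all cells: 40.4% of Sox6-only and 28.3% of Vsx1-only cells had it at 1 TPM or more.

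Cdh9, a type II cadherin known from bipolar cells, overlapped in level between the 3 groups. Sox6-only cells had 107, 107, 111 and 110 TPM in 1la, 1Ra, 2la and 2Ra (108 ± 2.22 TPM, SD, n = 4). Vsx1-only cells ranged from 45.9 to 133 TPM and Ddit4l-only cells from 51.8 to 149 TPM, overlapping each other and the Sox6-only retinas. The log2 fold changes lay between 0.07 and 0.32 in retina sums, with adjusted p-values of 0.851 to 0.985, and 132 of 151, 51 of 60 and 52 of 59 cells had it at 1 TPM or more. A p that misses the threshold does not show equal levels.

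Cdh8 was at 1 TPM or more in a minority of cells of each group. In Ddit4l-only cells the retina means were 9.21, 119, 39.7 and 9.04 TPM in 1la, 1Ra, 2la and 2Ra, with 24 of 59 cells at 1 TPM or more, 17 of them at 20 TPM or more and a highest value of 652 TPM. Vsx1-only cells had 71.5, 23.1, 113 and 35.3 TPM, of which a single cell gave 35.8% of the summed level, and only 9 of 60 cells had 1 TPM or more, with a highest value of 1277 TPM. In Sox6-only cells 7 of 151 cells had it, and 1 cell of 2Ra gave 71.4% of the sum. No comparison passed, with adjusted p-values of 0.433, 0.557 and 0.928 in retina sums. The remaining type II members were lower: Cdh12 reached 12.4 TPM in Vsx1-only cells, where 20 of 60 cells had 1 TPM or more against 2 of 151 and 2 of 59, and Cdh18 reached 13.1 TPM there. Neither passed in retina sums; the smallest adjusted p was 0.077, for Cdh12 in Ddit4l-only against Vsx1-only cells. Cdh6, Cdh7, Cdh22, Cdh19 and Cdh24 stayed under 5 TPM.

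Among type I cadherins Cdh2, the N-cadherin of most neurons, was found in all 3 groups. Its retina means were 44.2, 49, 49.7 and 74.7 TPM in Sox6-only, 37.8, 78.8, 53.8 and 74.1 TPM in Vsx1-only and 31.1, 102, 91.8 and 130 TPM in Ddit4l-only cells (1la, 1Ra, 2la, 2Ra). The groups overlapped, none of the comparisons passed in either kind of sum, and 74.8% to 79.7% of cells had 1 TPM or more. Cdh4, the R-cadherin first described in retina, had 11.6 TPM in Vsx1-only and under 5 TPM in the other groups, with no call. Cdh17, a cadherin of intestine and liver, was listed at 7.02, 4.24 and 5.93 TPM in the 3 groups and in 73.3% to 84.8% of cells. In 91.5% of the kept cells where it was above 0 its expected count was more than 0.005 from a whole number, which happens where reads are shared between loci, so its level is uncertain. Over the 12384 genes above 0 in at least 50 kept cells the median of this share was 63.6%, and 34% of them were over 80%. Of the 10 members that reached 20 TPM, Cdh11 (95.4%), Cdh10 (87.9%) and Cdh20 (82.6%) were over 80% too, and the other members ran from 44.4% (Pcdh7) to 68.4% (Pcdh17). The same doubt therefore holds for the levels of Cdh11, Cdh10 and Cdh20. This share does not say how large a part of a count is shared.

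**Figure D3:**
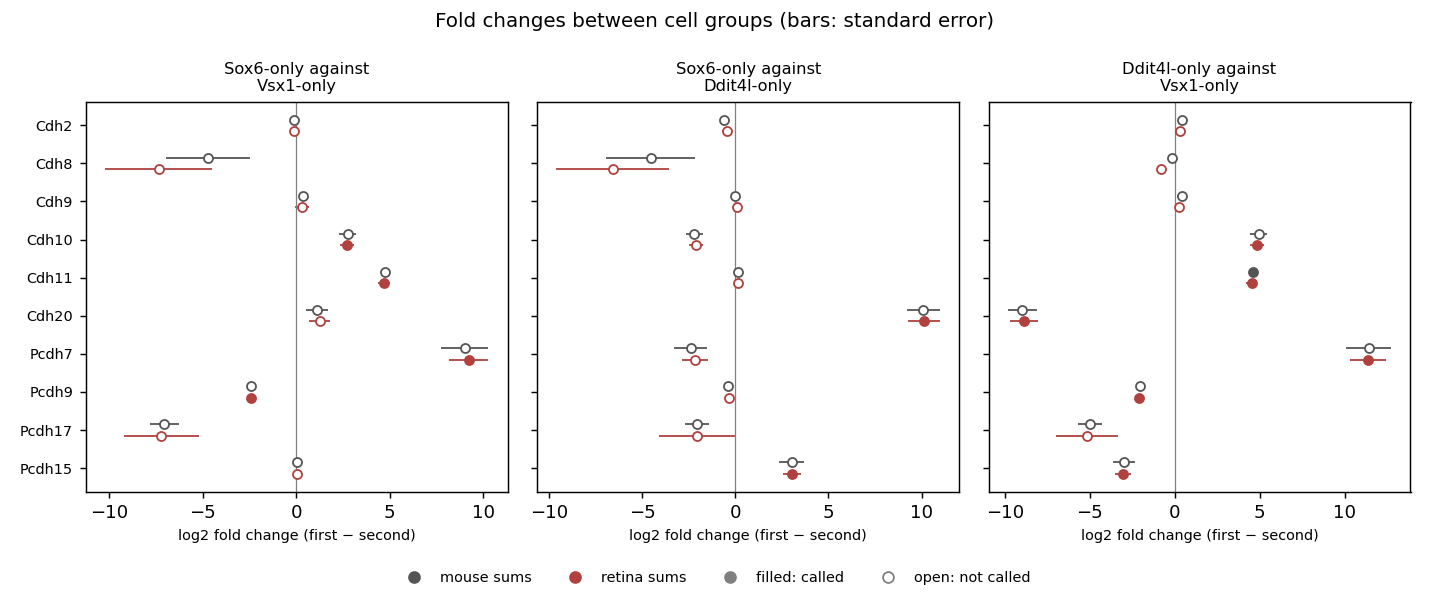
Log2 fold change (horizontal axis, first group minus second) of the 10 members in each comparison, from mouse sums (grey) and retina sums (red), with bars of 1 standard error where the unadjusted p was under 0.5. Filled points are calls: Cdh11 alone in mouse sums, in Ddit4l-only against Vsx1-only cells at 4.61, and 4, 2 and 6 members in retina sums.

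Pcdh15, which belongs to neither delta class, was high in Sox6-only and Vsx1-only cells and low in Ddit4l-only cells. Sox6-only cells had 160, 124, 93 and 68.7 TPM in 1la, 1Ra, 2la and 2Ra, Vsx1-only cells 188, 85.8, 98.2 and 57.6 TPM, and Ddit4l-only cells 6.96, 8.87, 20.3 and 12.4 TPM. Every Ddit4l-only retina was below every retina of the other groups, which overlapped. Retina sums called it in Sox6-only against Ddit4l-only cells (log2 fold change 3.04, SE 0.49, edgeR adjusted p = 0.036) and in Ddit4l-only against Vsx1-only cells (-3.03, SE 0.48, adjusted p = 0.017). The first call was lost without any 1 of the 4 (adjusted p from 0.122 to 0.318), the second without 1Ra, 2la or 2Ra. Mouse sums gave 3.03 and -2.97 with adjusted p-values of 0.475 and 0.232.

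What Pcdh15 there was in Ddit4l-only cells moved with rod transcripts. Of 9 Ddit4l-only cells with Pcdh15 at 20 TPM or more, 8 were rod-rich, and the mean was 64.5 TPM in the 11 rod-rich cells and 1.21 TPM in the 48 others. In Sox6-only cells the corresponding means were 155 and 87.8 TPM, the medians 74.8 and 11 TPM, and the shares of cells at 20 TPM or more 72.1% and 47.2%. In Vsx1-only cells the means were 130 and 102 TPM, the medians 67.6 and 46.3 TPM and the shares 72.2% and 61.9%. Pcdh15 was thus lower in the cells under 1000 TPM of rod transcripts in all 3 groups by each of these measures. Without rod-rich cells, an alternative chosen after seeing the data for retina sums, the log2 fold changes were 7.58 (edgeR adjusted p = 0.017) and -7.88 (adjusted p = 0.0066), more than 4 log2 units further from 0. In that fit the 48 Ddit4l-only cells held 66 counts of Pcdh15, and the highest single cell had 49.1 TPM. The size of these fold changes thus rests on low sums in that group. Of the 8 rod genes 3, 3 and 1 had a median of at least 1 TPM in Sox6-only, Vsx1-only and Ddit4l-only cells, with Nrl and Nr2e3 at a median of 0 in each. Their summed retina means ran from 1116 to 2566, 802 to 3364 and 460 to 1671 TPM. The part of rod transcripts in the Pcdh15 levels of Sox6-only and Vsx1-only cells was not tested. Leaving out those cells kept the retina-sum calls of Cdh11, Pcdh9, Cdh20 and Pcdh7 and that of Cdh10 in Ddit4l-only against Vsx1-only cells. Cdh23, the partner of Pcdh15 in hair cells, had 1.10 TPM at most, and 98.3% of its Ddit4l-only sum came from 1 cell.

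The calls of retina sums can be read by direction. In Sox6-only against Vsx1-only cells 3 members were higher in Sox6-only cells (Cdh10, Cdh11 and Pcdh7, against 0.51% of genes) and 1 in Vsx1-only cells (Pcdh9, against 0.296%). In Sox6-only against Ddit4l-only cells 2 were higher in Sox6-only cells (Cdh20 and Pcdh15, against 0.393%) and 0 in Ddit4l-only cells (0.159%). In Ddit4l-only against Vsx1-only cells 3 were higher in Ddit4l-only cells (Cdh10, Cdh11 and Pcdh7, against 1.02%) and 3 in Vsx1-only cells (Cdh20, Pcdh9 and Pcdh15, against 1.28%). The comparisons share cell groups, so these counts are not independent of each other.

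Single cells held small and varied sets of members. Counting members at 20 TPM or more, the median cell had 4 in Sox6-only, 5 in Vsx1-only and 4 in Ddit4l-only cells, with a range of 0 to 8 over all groups. The retina means of this number ran from 3.69 to 3.88, 4.25 to 4.81 and 3.7 to 4.5. Among 151 Sox6-only cells there were 103 distinct sets, 79 of them in a single cell, and the most frequent, Cdh9 with Cdh11 and Pcdh15, was in 8 cells. Among 60 Vsx1-only cells there were 47 sets, with Cdh9, Pcdh9 and Pcdh15 in 6 cells, and among 59 Ddit4l-only cells 54 sets, none in more than 2. Detection in a single cell is incomplete, and the part of missed transcripts in this variety was not tested. With every cell thinned to 200000 counts, the share of cells with a count of Cdh11 was 88.1%, 43.3% and 89.8% in Sox6-only, Vsx1-only and Ddit4l-only cells, against 94.7%, 58.3% and 94.9% before. The same shares of Pcdh17 were 1.32%, 70% and 15.3% after thinning and 9.27%, 78.3% and 20.3% before.

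**Figure D4:**
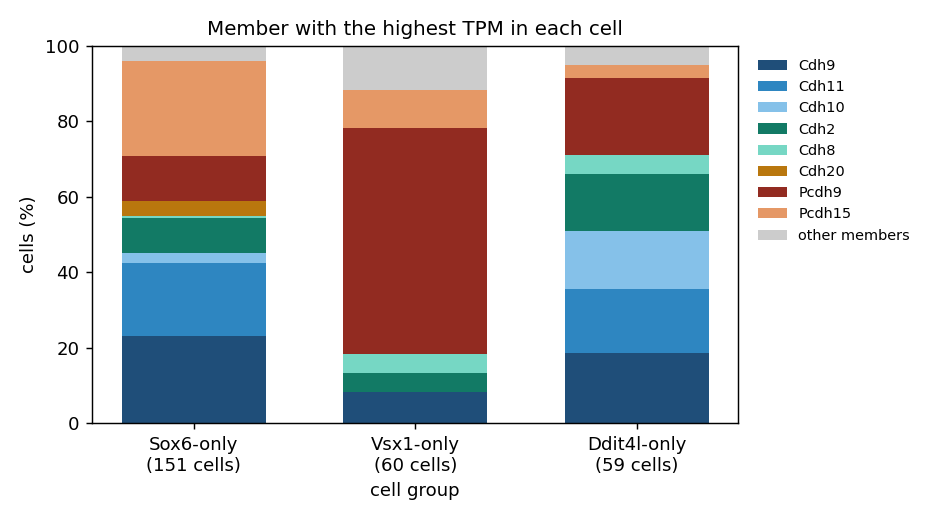
Share of cells (vertical axis, percent, from 0) in which each member had the highest TPM of the 35, for the 3 groups. Pcdh9 leads in 36 of 60 Vsx1-only cells, while no member leads in more than 25.2% of Sox6-only or 20.3% of Ddit4l-only cells.

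The member with the highest TPM in a cell differed between the groups. In Vsx1-only cells it was Pcdh9 in 36 of 60 cells and Pcdh15 in 6. Sox6-only cells were led by Pcdh15 in 38 of 151, Cdh9 in 35, Cdh11 in 29, Pcdh9 in 18 and Cdh2 in 14 cells. Ddit4l-only cells were led by Pcdh9 in 12 of 59, Cdh9 in 11, Cdh11 in 10 and Cdh10 and Cdh2 in 9 each. Members seen together at 20 TPM or more are given as a description, since cells of a retina share their source. All 11 Vsx1-only cells with Cdh12 also had Cdh2 and Cdh9, while Cdh2 was in 36.7% and Cdh9 in 73.5% of the cells without Cdh12. In Ddit4l-only cells Cdh9 was in 76.3% of cells with Cdh2 and in 38.1% of those without, and Cdh10 in 29.4% of cells with Cdh8 and 54.8% of those without. Those pairs were picked after their values were seen. For Sox6-only cells the pair of Cdh9 and Cdh11 showed no such gap: Cdh11 was in 68.7% of cells with Cdh9 and in 69.2% of those without.

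The genes of the pathway around the members were taken from a list of catenins and junction proteins, other cadherin-like proteins, WAVE complex partners, proteases that cut cadherins, and partners of Pcdh15 and Cdh23. Of 61 measured, 45 were tested in mouse sums, where 0 were called in each comparison, with 6, 5 and 9 at an unadjusted p under 0.05 (1429, 1342 and 2141 of all 16646 genes). Retina sums tested 43 and called 0, 1 and 1, beside 0.806%, 0.551% and 2.3% of all genes, so the list's share of calls was near that of all genes. The call in both cases was Ush1g, a scaffold protein that works with Pcdh15 in hair cells. It had 15.2, 37.3, 25.7 and 12.1 TPM in Vsx1-only cells, 14.3, 9.69, 2.45 and 0.83 TPM in Sox6-only cells (1la, 1Ra, 2la, 2Ra), and 4 counts in all 59 Ddit4l-only cells. Like Pcdh15 it was thus lowest in every Ddit4l-only retina. The edgeR adjusted p in retina sums was 0.030 for Sox6-only against Ddit4l-only and 0.0054 for Ddit4l-only against Vsx1-only cells, and in mouse sums 0.363 and 0.124. None of the catenins that bind classical cadherins was called. Retinas of the 3 groups overlapped for Ctnnb1, beta-catenin, with means of 39.9, 72 and 58.1 TPM in Sox6-only, Vsx1-only and Ddit4l-only cells, and for Ctnna2, the alpha-catenin of neurons, with 76.3, 43 and 66 TPM. In the p120-catenin family some did not, named here after their values were seen. Ctnnd2, delta-catenin, had 12.7 to 22.9 TPM over the Vsx1-only retinas, against at most 11.5 TPM in a Sox6-only and 9.99 TPM in a Ddit4l-only retina. Pkp4 had 80.1 to 116 TPM in Ddit4l-only retinas, against at most 70.5 TPM in Sox6-only and 69.2 TPM in Vsx1-only retinas. Arvcf had 19.5 to 34.4 TPM in Ddit4l-only retinas, against at most 13.1 TPM in Vsx1-only retinas, and overlapped with Sox6-only cells. For these 3 genes the smallest edgeR adjusted p was 0.349 in mouse sums and 0.110 in retina sums, both for Pkp4 in Ddit4l-only against Vsx1-only cells.

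Within a group, the retinas were compared by asking for both retinas of a side to exceed both of the other side by 2-fold or more, in genes whose mean over the retinas of either side was at least 20 TPM. No test was run on these splits, and a difference cannot be told apart from one between sets of wells. Between Ra and la retinas 0 of 6 members split in Sox6-only cells (4.33% of genes), 1 of 6 in Vsx1-only cells (Cdh8, higher in la, against 7.21% of genes) and 0 of 7 in Ddit4l-only cells (7.89%). Between mice 1 of 7 split in Sox6-only cells (Cdh20, higher in mouse 1, against 2.62%), 1 of 7 in Vsx1-only cells (Pcdh1, higher in mouse 1, against 5.86%) and 0 of 7 in Ddit4l-only cells (5.81%).

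The members lie on 11 chromosomes of GRCm38 (GENCODE M21). Chromosome 8 holds 8 of them, among them Cdh8 and Cdh11, and chromosomes 14 and 15 hold 5 each. The 5 on chromosome 15 (Cdh6, Cdh9, Cdh10, Cdh12 and Cdh18) are all type II. Cdh9 lies at chr15:16728756-16857094 and Cdh10, next in this row, at chr15:18818947-19014236. These neighbours on the chromosome differed in pattern: Cdh9 overlapped between all 3 groups, Cdh10 was highest in Ddit4l-only cells, and Cdh12 and Cdh18 had their highest group mean in Vsx1-only cells. On chromosome 14 Pcdh9 (chr14:93013410-93890679) and Pcdh17 (chr14:84443563-84539002) both had their highest level in Vsx1-only cells, while Pcdh8 and Pcdh20 on the same chromosome stayed under 5 TPM. Exons of Cdh8, Cdh9, Pcdh7, Pcdh8, Pcdh10 and Pcdh19 overlap other annotated genes on the opposite strand. Whether reads were counted by strand is not given in the sources used here, so such reads cannot be told apart.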

How the data were processed

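Sorted single cells in plates were sequenced by Smart-seq2, which amplifies full-length cDNA. The tools were RSEM 1.2.28 and TopHat2 2.0.10 on mm10, per the submitters' processing notes. The annotation is not given in the sources used here. The authors deposited RSEM expected counts (estimated counts, not normalized) and TPM per gene and cell. Of 384 labelled cells 383 had values, and 1 cell of 1la was not analysed here.

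Expected counts were rounded, summed per mouse and cell group, and tested with edgeR 4.0.16 (R 4.3.3, limma 3.58.1; filterByExpr, TMM, quasi-likelihood, mouse as block because the groups come from the same 2 mice) in 3 comparisons, with Benjamini-Hochberg adjustment over all genes tested. Sums per retina, DESeq2 1.42.0 and limma on log2(mean TPM + 1) were alternatives. Nothing says that cells or retinas of a mouse are independent, so p-values measure the spread between these sums, less the block where one was used. The fits were also run on simulated counts with known fold changes, drawn independently at a spread fixed beforehand. That spread was not estimated from these data, so the simulation does not show how many differences the fits miss here. Members with values in the text are those called in any comparison or with a group mean of at least 20 TPM. Members within 5 to 20 TPM are given in short, and other examples were picked after their values were seen. The members, groups, marker lists and partner list were chosen with earlier results of these data known. No cells looked duplicated: the highest correlation of log2(count + 1) between kept cells was 0.77. Doublets were not called, and cells with more than 1 marker were left out of the groups. All columns of values were mapped to cells. Intervals cover counting error only.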

Additional observations from a re-analysis of the deposited data

Results flagged for a closer look

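Of 30 sets of 4 retina means (10 members in 3 groups), 4 had a retina apart from the other 3 by Dixon's criterion, which chance gives in about 1 of 20. In retina 2Ra the Sox6-only cells had a mean Cdh8 of 15.1 TPM, against at most 0.29 TPM in the other retinas. In retina 2la the Vsx1-only cells had a mean Pcdh7 of 0.0621 TPM, against 0 in the others, which is at the level of single counts. The Ddit4l-only cells of 2la had a mean Pcdh7 of 72.1 TPM, against 28.1 to 30.9 TPM. Sox6-only cells of 2la had a mean Pcdh9 of 78.2 TPM, against 55.5 to 58.5 TPM.

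Some members were higher in wells that the comparisons do not use. Cdh18 had a mean of 38.4 TPM in the 51 kept cells outside the 3 groups, above the 13.1 TPM of the highest group, with 9 cells at 20 TPM or more in 4 retinas. Pcdh11x had a mean of 27.7 TPM in those cells, from 3 cells in 2 retinas, and was under 1 TPM in each group. Cdh22 had a mean of 33.9 TPM in the 62 wells under the gene filter, all of it from 1 well of 2la.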

How the results depend on the processing

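The 12 log2 fold changes of members called in retina sums kept their sign in all 204 values under 17 alternatives to the mouse sums. Retina sums, which picked these 12, are themselves among the 17. All alternatives use cells of the same 2 mice, so the kept signs are a description only. Counts of calls moved more. They are given in the order Sox6-only against Vsx1-only, Sox6-only against Ddit4l-only, Ddit4l-only against Vsx1-only, and the mouse sums gave 0, 0 and 1 members and 0, 0 and 7 genes. Sums per retina gave 4, 2 and 6 of 21 members and 117, 80 and 333 of 14508 genes. DESeq2, without edgeR's filter on low counts, gave 8, 9 and 11 of 31 members and 977, 890 and 1766 genes. The fit with no replicate block gave 0, 0 and 5 of 25 members and 16, 2 and 62 genes. In Ddit4l-only against Vsx1-only cells, a marker threshold of 50 TPM and a minimum of 5000 genes each gave 0 members and 4 genes, and leaving out rod-rich cells or using limma gave 0 members and 0 genes. Sox6-only against Vsx1-only cells gave 3 genes with no filter on low counts and 1 gene at 50 TPM. Leaving out a retina or a mouse gave 0 members in each comparison and 0 to 3, 0 to 2 and 0 to 11 genes. The fits without a mouse used retina sums of the other mouse, with the retina as a block. Leaving out a retina from the retina sums, added after seeing the data, gave 2 to 3, 1 and 5 to 6 members. The genes called without 1la, 1Ra, 2la and 2Ra were 34, 17, 17 and 71, then 20, 7, 21 and 28, then 108, 75, 69 and 141. RLE size factors, a marker threshold of 10 TPM and a minimum of 1500 genes left the member counts as they were. The cause of these shifts was not tested. A member not called is not shown to be equal.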
